A study of Mus musculus with 9 samples.

Results

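Transcripts that the ERK pathway induces, most of which in turn restrain it, were followed in the livers of db/db mice given FGF19ΔKLB, FGF19WT or PBS vehicle. The set holds 9 genes named by symbol, Dusp4, Dusp5, Dusp6, Spry2, Spry4, Spred1, Spred2, Etv5 and Phlda1. All 9 were found among the 28517 genes of the deposited table and all 9 passed the filter on low counts, as did 18142 genes in all. In db/db mice the leptin receptor is defective, and the animals develop obesity and diabetes. The FGF19ΔKLB, FGF19WT and vehicle groups hold 3 liver libraries each, and treatment ran for 12 weeks in every group. Columns of the FGF19ΔKLB group are headed F19_HBS, a code the labels do not explain, and which change the protein carries is not given in the sources used here. Age, sex and dose are not given in the sources used here, nor is it stated that the libraries of a group come from separate animals. Each p-value therefore measures the spread between these samples, which may be technical.

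FGF19 is an intestinal hormone that binds FGFR4 and its co-receptor β-klotho on hepatocytes and lowers bile acid synthesis. An active FGF receptor phosphorylates the adaptor FRS2, which recruits GRB2 and SOS, and SOS loads Ras with GTP so that RAF, MEK and ERK are phosphorylated in turn. ERK then induces its own brakes. DUSP phosphatases remove the phosphates from ERK, Sprouty and Spred proteins block the step from receptor to Ras and RAF, and transcript levels of these genes are widely read as a gauge of ERK output. Etv5, an ETS transcription factor induced by FGF signalling, and Phlda1, a pleckstrin homology-like protein, belong to the same induced programme without being brakes on ERK themselves.

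Total counts were 69.1 to 73.3 M with FGF19ΔKLB, 65.1 to 70.6 M with FGF19WT and 68.8 to 73.3 M with vehicle. Levels of a gene across libraries are CPM, counts scaled to library size with TMM factors, and levels between genes are the authors' FPKM, which also corrects for length. Changes were tested with edgeR over all 9 libraries, adjusted over all 18142 genes, and a gene was called at an adjusted p under 0.05. FGF19WT libraries 2 and 3 stood apart from the other 7 libraries. They lay at 130 and 170 on the first principal component, and the other 7 lay between −64.0 and −7.85. Glutamine synthetase, Glul, a pericentral hepatocyte enzyme, stood at 14770 and 12685 CPM in them, at 185 CPM in FGF19WT library 1, at 224 to 364 CPM with FGF19ΔKLB and at 549 to 1000 CPM with vehicle. The hepatocyte markers summed to 195125 to 284792 CPM with FGF19ΔKLB, 95525 to 196505 CPM with FGF19WT and 95328 to 157060 CPM with vehicle, and none of the 6 was at 0. In bulk tissue, fewer cells of a type and less RNA per cell cannot be told apart.

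The 9 genes fell into 2 patterns. In FGF19WT libraries 2 and 3, 7 of the 9 genes stood above all other 7 libraries, where 18.4% of all tested genes did. These were Dusp4, Dusp5, Dusp6, Spred1, Spred2, Etv5 and Phlda1. The exceptions were both Sprouty genes. Spry4 and Spry2 were high in FGF19ΔKLB livers and in FGF19WT library 1, and close to vehicle in FGF19WT libraries 2 and 3. The pattern was noticed in these libraries and was not tested on others.

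**Figure D1:**
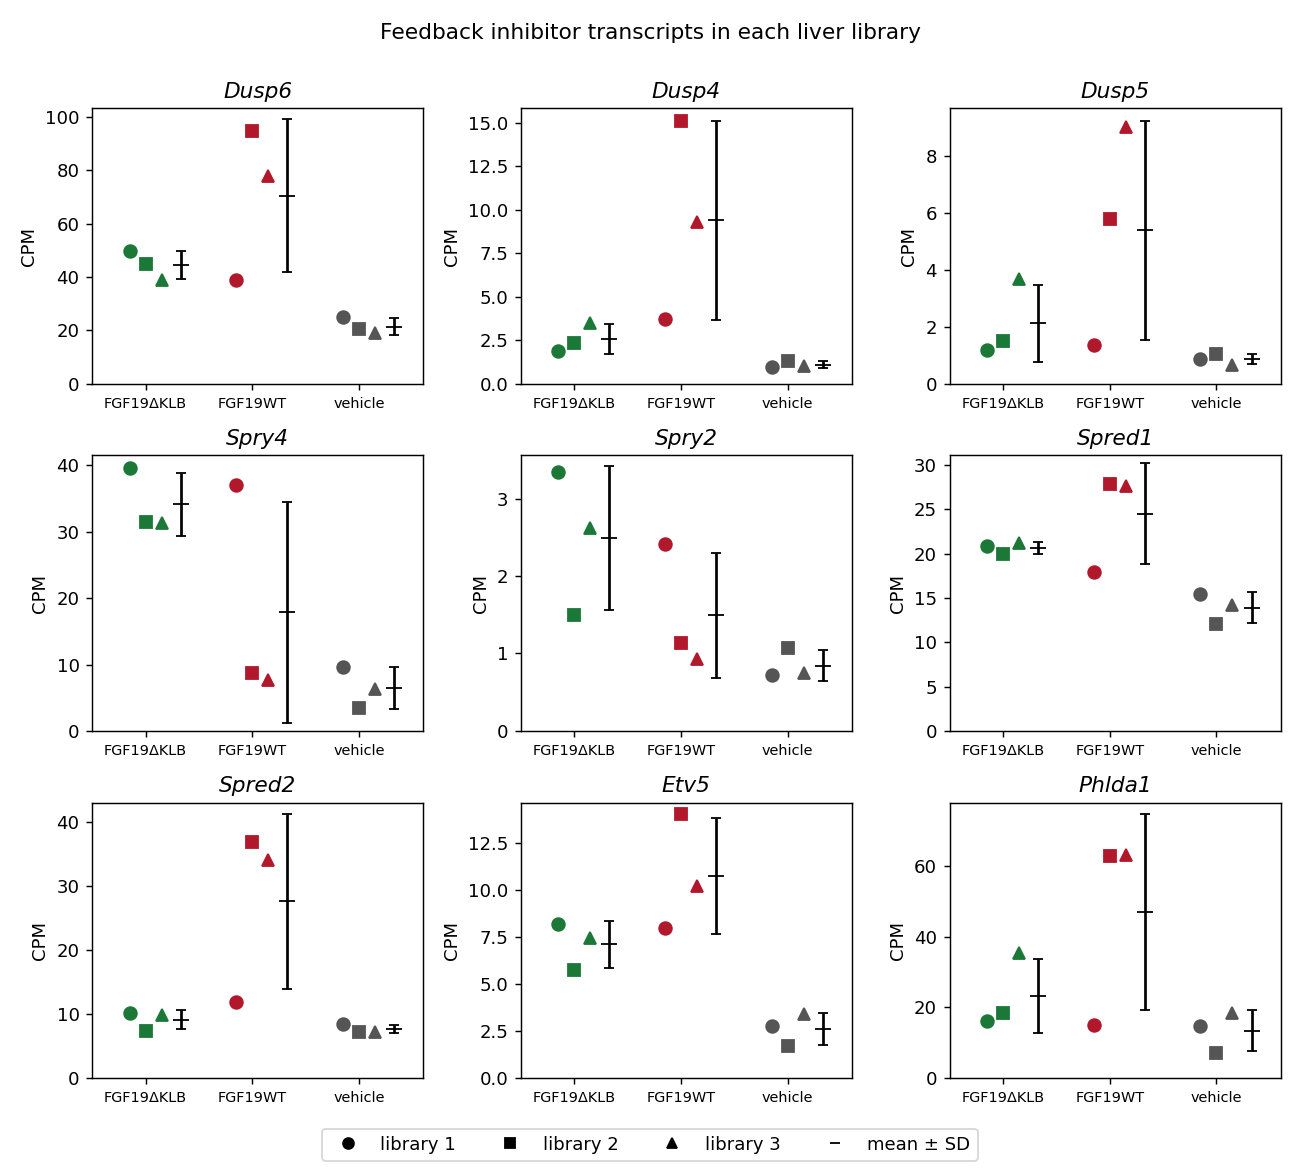
Level of each gene in CPM (vertical axis, starting at 0) in the FGF19ΔKLB, FGF19WT and vehicle groups; each symbol is 1 library and the bar is the mean ± SD of 3. FGF19WT libraries 2 and 3 lie above every other library for 7 genes, while for Spry4 and Spry2 they lie beside vehicle.

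Dusp6 encodes a cytoplasmic phosphatase of ERK and lies on chromosome 10 from 99263231 to 99267489 on the plus strand (GRCm38, as are all positions here). It stood at 49.7, 44.8 and 38.9 CPM in FGF19ΔKLB libraries 1 to 3, at 38.9, 94.8 and 77.7 CPM in FGF19WT libraries 1 to 3, and at 24.9, 20.4 and 19.1 CPM in vehicle libraries 1 to 3. Both treated groups lay wholly above vehicle, and FGF19WT library 1 lay at the low end of the FGF19ΔKLB range. The log2 change of FGF19ΔKLB against vehicle was 1.05 (SE 0.30, 95% interval 0.38 to 1.73, edgeR adjusted p = 0.383). For FGF19WT against vehicle it was 1.72 (SE 0.30, interval 1.03 to 2.40, adjusted p = 0.0924).

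Dusp4, a nuclear phosphatase that acts on ERK and on other MAP kinases, lies on chromosome 8 from 34807297 to 34819894 on the plus strand. Its levels were 1.88, 2.35 and 3.51 CPM with FGF19ΔKLB, 3.74, 15.1 and 9.32 CPM with FGF19WT, and 0.9746, 1.32 and 1.01 CPM with vehicle. The ranges of the 3 groups did not overlap, with FGF19WT highest and vehicle lowest. Against vehicle, FGF19WT gave a change of 8.52-fold (log2 3.09, SE 0.51, adjusted p = 0.0841), and FGF19ΔKLB gave 2.34-fold (log2 1.23, SE 0.48, adjusted p = 0.548).

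Dusp5, a nuclear phosphatase specific for ERK, lies on chromosome 19 from 53529109 to 53542431 on the plus strand. It stood at 1.19, 1.51 and 3.67 CPM with FGF19ΔKLB, at 1.35, 5.80 and 9.01 CPM with FGF19WT and at 0.881, 1.04 and 0.678 CPM with vehicle. Both treated groups lay above vehicle, narrowly at their low ends. FGF19ΔKLB library 3 had more than the other libraries of its group, and FGF19WT library 1 lay inside the FGF19ΔKLB range. The log2 changes against vehicle were 1.29 for FGF19ΔKLB (interval −0.25 to 2.83, adjusted p = 0.682) and 2.63 for FGF19WT (interval 1.03 to 4.24, adjusted p = 0.132). The vehicle libraries held 53 to 71 counts of this gene, about 13 to 18 read pairs if each gave 4 counts, so its lower levels carry a wide counting error.

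RefSeq promoter windows, 250 bases before the transcription start, were at hand for 6 of the 9 genes, Dusp5, Dusp6, Spry2, Spred1, Spred2 and Etv5, with 2 windows for Etv5. Upstream sequence is shown for Dusp5, which held the motif described next, for Dusp6, the most abundant gene of the set, and for Spry2, whose levels followed the other pattern. The letters run 5′ to 3′ on GRCm38.p6 and end where the gene of the deposited table begins. The windows are chr19:53528895-53529108 on the plus strand for Dusp5, chr10:99262981-99263230 on the plus strand for Dusp6 and chr14:105896820-105897069 on the minus strand for Spry2. Capitals mark CArG boxes, the element that serum response factor binds.
Dusp5: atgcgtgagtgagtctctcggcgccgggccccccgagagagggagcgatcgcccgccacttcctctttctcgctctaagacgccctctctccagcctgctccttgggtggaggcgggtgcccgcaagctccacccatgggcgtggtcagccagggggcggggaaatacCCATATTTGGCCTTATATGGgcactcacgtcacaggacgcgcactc
Dusp6: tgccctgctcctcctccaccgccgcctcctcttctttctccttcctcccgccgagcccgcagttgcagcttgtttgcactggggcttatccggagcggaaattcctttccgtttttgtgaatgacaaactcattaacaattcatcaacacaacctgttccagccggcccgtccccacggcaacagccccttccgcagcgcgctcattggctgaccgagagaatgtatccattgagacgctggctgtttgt
Spry2: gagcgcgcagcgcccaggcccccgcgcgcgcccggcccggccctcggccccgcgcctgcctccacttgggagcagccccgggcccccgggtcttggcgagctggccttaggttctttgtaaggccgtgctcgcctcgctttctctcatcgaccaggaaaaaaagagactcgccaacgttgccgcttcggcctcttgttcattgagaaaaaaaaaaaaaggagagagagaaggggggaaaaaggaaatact

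Dusp5 carried 2 CArG boxes that abut, starting 82 and 72 bases before the RefSeq start. A CArG box occurred in 1.47% of the 32851 windows of this length in the RefSeq table, 2 or more in 0.0183%, and in no window of the other 5 genes. Of ETS sites only the sequence CCGGAAG was searched for, not shorter or other forms. It was found in 6.91% of all windows on either strand and in none of the 7 windows of these genes. The AP-1 motif TGANTCA, in 6.75% of windows, and the cyclic AMP element TGACGTCA, in 1.55%, were likewise in none. All motifs were chosen after the expression values were seen and read on both strands, and the CArG boxes shown overlap none of the others. G and C made up 56.4% of the Dusp6 window, 62.4% of the Spry2 window and 64% of the Dusp5 window, against a median of 52.4% over all windows. A match describes letters in this window and says nothing of binding.

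Spry4, a Sprouty protein that inhibits signalling from growth factor receptors to Ras, lies on chromosome 18 from 38586247 to 38601415 on the minus strand. It stood at 39.6, 31.5 and 31.3 CPM with FGF19ΔKLB, at 37.1, 8.77 and 7.69 CPM with FGF19WT and at 9.71, 3.40 and 6.29 CPM with vehicle. Every FGF19ΔKLB library and FGF19WT library 1 lay above all vehicle libraries, and FGF19WT libraries 2 and 3 lay within the vehicle range. FGF19ΔKLB against vehicle gave a change of 5.27-fold (log2 2.40, SE 0.64, interval 0.95 to 3.85, adjusted p = 0.344 over 9 libraries). FGF19WT against vehicle gave a log2 change of 1.46 (SE 0.62, interval 0.05 to 2.88, adjusted p = 0.249), and the SD of the group, 16.7 CPM, was close to its mean of 17.8 CPM.

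Spry2, the other Sprouty member, lies on chromosome 14 from 105891947 to 105896819 on the minus strand. Its levels were 3.34, 1.495 and 2.62 CPM with FGF19ΔKLB, 2.42, 1.14 and 0.929 CPM with FGF19WT and 0.721, 1.07 and 0.742 CPM with vehicle. All FGF19ΔKLB libraries exceeded vehicle, and FGF19WT library 2 lay just above the highest vehicle library and FGF19WT library 3 inside the vehicle range. The log2 change was 1.56 with FGF19ΔKLB (SE 0.48, interval 0.47 to 2.64, adjusted p = 0.425) and 0.82 with FGF19WT (SE 0.47, interval −0.25 to 1.89, adjusted p = 0.367). At 54 to 228 counts, about 14 to 57 read pairs, Spry2 was among the least covered of the 9.

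Spred1 recruits neurofibromin to the membrane and so switches Ras off. The gene lies on chromosome 2 from 117121374 to 117182279 on the plus strand. It stood at 20.9, 19.9 and 21.2 CPM with FGF19ΔKLB, at 17.9, 27.9 and 27.6 CPM with FGF19WT and at 15.5, 12.0 and 14.2 CPM with vehicle. Both treated groups lay above vehicle. The 3 FGF19ΔKLB libraries lay close together, while FGF19WT library 1 lay below them and FGF19WT libraries 2 and 3 above them. The log2 changes were 0.57 for FGF19ΔKLB (SE 0.19, adjusted p = 0.478) and 0.82 for FGF19WT (SE 0.19, adjusted p = 0.125).

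Spred2, a second Spred inhibitor of the Ras pathway, lies on chromosome 11 from 19924375 to 20024026 on the plus strand. It stood at 10.1, 7.42 and 9.84 CPM with FGF19ΔKLB, at 11.9, 36.9 and 34.0 CPM with FGF19WT and at 8.38, 7.26 and 7.24 CPM with vehicle. FGF19ΔKLB overlapped vehicle, and its log2 change of 0.26 (interval −0.58 to 1.10, adjusted p = 0.918) was the lowest estimate of the 9, with an interval that overlaps those of the other 8. In FGF19WT livers the log2 change was 1.85 (SE 0.38, interval 0.99 to 2.72, adjusted p = 0.123), and the lower of FGF19WT libraries 2 and 3 was 2.87 times the highest of the other 7 libraries.

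Etv5 lies on chromosome 16 from 22381309 to 22439719 on the minus strand. It stood at 8.18, 5.74 and 7.44 CPM with FGF19ΔKLB, at 7.97, 14.1 and 10.2 CPM with FGF19WT and at 2.78, 1.70 and 3.39 CPM with vehicle. Every treated library exceeded every vehicle library, the lowest treated value being 5.74 and the highest vehicle value 3.39 CPM. Etv5 had the smallest adjusted p of the 9 genes in both comparisons with vehicle over 9 libraries, 0.243 for FGF19ΔKLB (log2 1.44, SE 0.32) and 0.0752 for FGF19WT (log2 2.04, SE 0.32).

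Phlda1 lies on chromosome 10 from 111506286 to 111508645 on the plus strand. Its levels were 16.03, 18.5 and 35.4 CPM with FGF19ΔKLB, 14.9, 62.9 and 63.1 CPM with FGF19WT and 14.8, 7.13 and 18.5 CPM with vehicle. FGF19WT library 1 and FGF19ΔKLB library 1 lay inside the vehicle range, and FGF19WT libraries 2 and 3 lay far above it. The log2 changes were 0.79 with FGF19ΔKLB (interval −0.52 to 2.10, adjusted p = 0.791) and 1.80 with FGF19WT (interval 0.46 to 3.14, adjusted p = 0.170). On the opposite strand Dusp5, Spry4 and Phlda1 overlap other annotated genes, where a library held at most 15 counts, and the strand setting of the counting is not given in the sources used here.

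**Figure D2:**
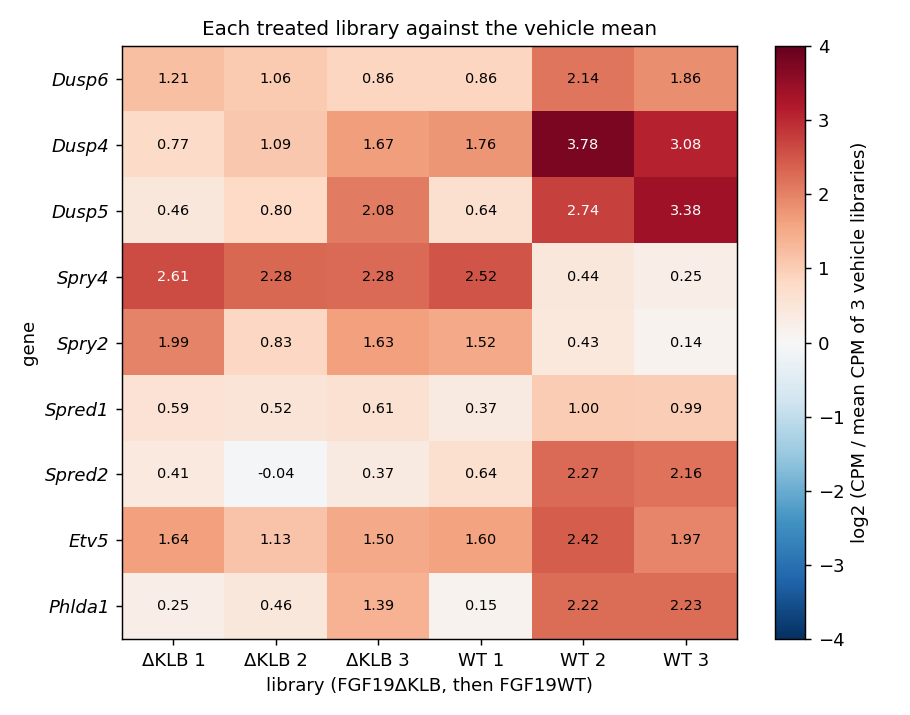
log2 ratio of the CPM of each treated library (columns, FGF19ΔKLB then FGF19WT) to the mean of the 3 vehicle libraries, for each gene (rows). FGF19WT library 1 lies inside the range of the FGF19ΔKLB columns for Dusp6, Dusp5, Spry4, Spry2 and Etv5. It lies below that range for Spred1 and Phlda1, and above it for Dusp4 and Spred2. FGF19WT libraries 2 and 3 are darkest for Dusp4 and Dusp5 and palest for the Sprouty genes.

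FGF19ΔKLB against vehicle gives the transcript levels of these genes with the variant, and ERK activity itself was not measured in these data. The change was positive for each of the 9, and their median on the log2 scale was 1.23, against 0.0018 over all tested genes. In 7 of the 9 the FGF19ΔKLB libraries lay wholly above vehicle, where 12.4% of all genes did, the exceptions being Spred2 and Phlda1. Over 9 libraries edgeR called 0 of the 9, beside 0.011% of all genes, and 6 of the 9 had an unadjusted p under 0.05, all higher, beside 8.35% of all genes in either direction, 4.64% higher and 3.72% lower. A fit to the 6 FGF19ΔKLB and vehicle libraries alone does not draw its error from FGF19WT. It called Dusp6 and Spry4, 2 of 9, both higher, beside 1.68% of all genes in either direction and 0.894% higher.

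In that fit Dusp6 rose by 1.05 on the log2 scale (SE 0.15, adjusted p = 0.0246) and Spry4 by 2.40 (SE 0.37, adjusted p = 0.0385). Etv5 stood at 1.44 with an adjusted p of 0.0586, Spred1 at 0.57 with 0.0804 and Spry2 at 1.56 with 0.0908. Dusp4 had an adjusted p of 0.113, Dusp5 of 0.229, Phlda1 of 0.418 and Spred2 of 0.507. Neither call held when each of the 6 libraries was left out in turn. Dusp6 lost its call without vehicle 1, 2 or 3 or FGF19ΔKLB 1, with adjusted p of 0.0572, 0.0759, 0.0818 and 0.0766. Spry4 lost its call without vehicle 3 or FGF19ΔKLB 1, 2 or 3, with adjusted p of 0.126, 0.11, 0.0693 and 0.0895. DESeq2 over 9 libraries called Spry4 and Etv5 (adjusted p = 0.0103 and 0.00389), 2 of 9 beside 2.04% of all genes, and limma voom with library weights called Dusp6, Spry4 and Etv5, 3 of 9 beside 2.13%. Without FGF19WT library 1, edgeR over the other libraries called Dusp6 and Spry4, beside 0.904% of all genes.

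Marker sums of other cell types also separated FGF19ΔKLB from vehicle. The 6 B and plasma cell genes summed to 23.1 to 51.4 CPM with FGF19ΔKLB, 16.2, 4.13 and 2.64 CPM with FGF19WT, and 94.99 to 237 CPM with vehicle. The 7 T and NK cell genes summed to 2.18 to 3.95 CPM with FGF19ΔKLB, 4.77, 1.54 and 2.04 CPM with FGF19WT, and 7.41 to 15.8 CPM with vehicle. The 8 stellate cell and fibroblast genes summed to 113 to 231 CPM with FGF19ΔKLB, 217, 237 and 216 CPM with FGF19WT, and 277 to 347 CPM with vehicle. In these 3 lists every treated library lay below every vehicle library, and the part of this in the levels of the feedback genes was not tested.

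FGF19WT against vehicle gives the values of the same genes for the FGF19WT protein, with the vehicle libraries shared with the comparison above. Each of the 9 genes again had a positive change, the median being 1.80 on the log2 scale and −0.0049 over all tested genes. The groups did not overlap for 6 of the 9, where 11% of all genes were higher without overlap, and Spry2, Spry4 and Phlda1 overlapped. edgeR over 9 libraries called 0 of the 9, beside 0.11% of all genes, and 8 of the 9 had an unadjusted p under 0.05, all higher, beside 18.8% of all genes in either direction, 11.7% higher and 7.07% lower. Over the 6 libraries of these groups it again called 0, beside 0.00574% of all genes.

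The FGF19WT result turned on library 1. Without it edgeR called 7 of the 9 genes as higher, all but Spry2 and Spry4, beside 27.4% of all genes in either direction. These are the 7 genes already seen to be highest in FGF19WT libraries 2 and 3. The calls therefore restate that pattern and add no separate support to it. In that fit Dusp4 changed by 3.46 on the log2 scale (adjusted p = 0.000359), Spred2 by 2.21 (adjusted p = 0.000116) and Etv5 by 2.20 (adjusted p = 0.00167), against 0.34 for Spry4 (adjusted p = 0.528) and 0.28 for Spry2 (adjusted p = 0.658). Without FGF19WT libraries 2 and 3 the 1 library left is assumed to vary like the other groups, and 0 of the 9 genes were called, beside 0.1% of all genes. Spry4 was then at 2.52 (adjusted p = 0.19), Dusp4 at 1.76 and Dusp6 at 0.86 (both adjusted p = 0.271), and Phlda1 at 0.15 (adjusted p = 0.992). DESeq2 called the same 7 genes over 9 libraries, beside 9.61% of all genes in either direction. With library weights limma voom also called those 7, beside 23.8% in either direction, but it gave FGF19WT library 1 the lowest weight, 0.190.

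**Figure D3:**
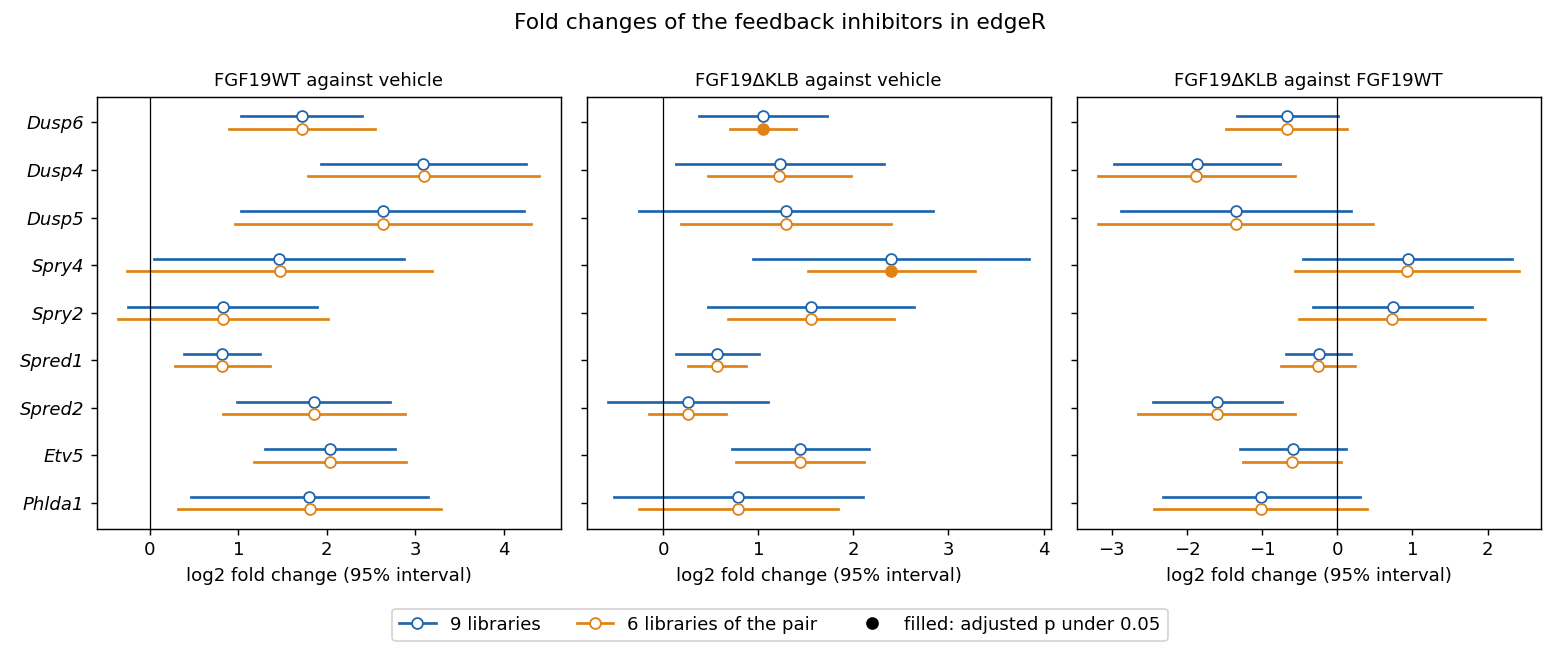
log2 fold changes with 95% intervals from edgeR for the 9 genes (rows) in the 3 comparisons (panels), over 9 libraries and over the 6 libraries of each pair of groups. Only Dusp6 and Spry4 for FGF19ΔKLB against vehicle over 6 libraries are filled, with adjusted p of 0.0246 and 0.0385.

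FGF19ΔKLB against FGF19WT tests the difference between both proteins directly. Over 9 libraries 7 of the 9 genes had negative changes, Spry2 and Spry4 had positive ones, and the median log2 change was −0.66 against 0.010 over all genes. The FGF19ΔKLB libraries lay wholly below FGF19WT for Dusp4 and Spred2, 2 of 9 where 6.39% of all genes did, and wholly above for none, where 7.15% did. edgeR called 0 of the 9, and 0% of all genes, over 9 libraries, with an unadjusted p under 0.05 for Dusp4 and Spred2, both lower, beside 12.5% of all genes in either direction, 7.96% lower and 4.54% higher. It called 0 of the 9 over 6 libraries, beside 0.00584% of all genes. The log2 change was −1.87 for Dusp4 (interval −2.97 to −0.76, adjusted p = 0.237) and −1.60 for Spred2 (interval −2.45 to −0.74, adjusted p = 0.237). For Spry4 it was 0.94 with an interval of −0.46 to 2.33 (adjusted p = 0.552), and for Spry2 0.74 with an interval of −0.33 to 1.80 (adjusted p = 0.542). For Etv5 the interval of −1.30 to 0.11 around −0.60 and for Spred1 that of −0.68 to 0.19 around −0.24 leave room for a lower level with FGF19ΔKLB and for none.

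This comparison too turned on FGF19WT library 1. Without it edgeR called 6 of the 9, beside 20.2% of all genes. That fit rests on FGF19WT libraries 2 and 3, in which the pattern was noticed, so its calls add no separate support. Spry4 was higher with FGF19ΔKLB by 2.06 on the log2 scale (adjusted p = 0.00785), and Dusp4, Dusp5, Dusp6, Spred2 and Phlda1 were lower, with adjusted p between 0.000204 for Spred2 and 0.0456 for Phlda1. Without FGF19WT libraries 2 and 3 the direction turned for Dusp5, Dusp6, Spry4, Spred1 and Phlda1, and 0 were called, beside 0.0352% of all genes. DESeq2 called Dusp4 and Spred2 (adjusted p = 0.00857 and 0.00494), 2 of 9 beside 4.6% of all genes. limma voom with library weights, which gave FGF19WT library 1 the lowest weight of 0.190, called Dusp4, Dusp6 and Spred2 as lower and Spry4 as higher, 4 of 9 beside 12% of all genes.

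Ratios within a library compare genes, here Spry4 with Dusp6 and Spred2 with Spred1, without any scaling between libraries. They were chosen after the values were seen and were not tested. The FPKM of Spry4 divided by that of Dusp6 was 0.525, 0.463 and 0.530 with FGF19ΔKLB, 0.628, 0.0609 and 0.0651 with FGF19WT, and 0.257, 0.110 and 0.217 with vehicle. FGF19WT library 1 had the highest ratio of the 9 libraries and FGF19WT libraries 2 and 3 the lowest. The FPKM of Spred2 divided by that of Spred1 was 0.712, 0.546 and 0.682 with FGF19ΔKLB, 0.972, 1.94 and 1.81 with FGF19WT, and 0.795, 0.885 and 0.748 with vehicle. These ranges did not overlap, with FGF19WT above vehicle and FGF19ΔKLB below it.

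**Figure D4:**
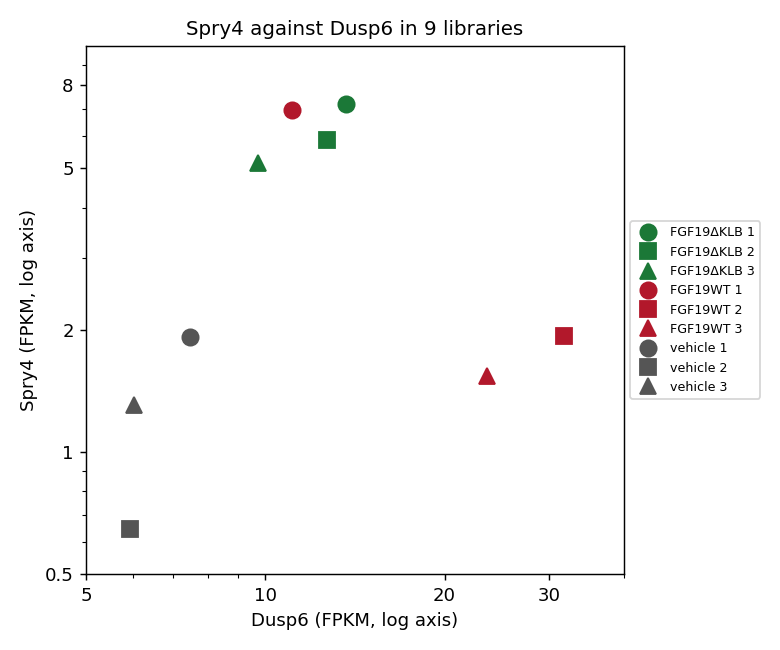
Spry4 against Dusp6 in FPKM on log axes, 1 symbol per library, coloured by group. The FGF19ΔKLB libraries and FGF19WT library 1 sit at high Spry4 and intermediate Dusp6, FGF19WT libraries 2 and 3 at the highest Dusp6 with Spry4 near vehicle, and vehicle at low values of both.

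Ranked per length, Dusp6 was the most abundant of the set in all 3 groups, at 12.0 ± 2.07 FPKM with FGF19ΔKLB, 22.1 ± 10.4 FPKM with FGF19WT and 6.47 ± 0.871 FPKM with vehicle (SD, n = 3 each). Phlda1 had rank 2 in each, at 8.76 ± 3.34 FPKM with FGF19ΔKLB, 21.05 ± 13.1 FPKM with FGF19WT and 5.85 ± 2.71 FPKM with vehicle, and differed from Dusp6 by less than its own SD each time. Spry4 had rank 3 with FGF19ΔKLB, at 6.07 ± 1.03 FPKM, and rank 5 with vehicle, at 1.29 ± 0.636 FPKM. With FGF19WT the genes of rank 3 to 6, Spred2, Spred1, Spry4 and Dusp4, lay between 3.41 and 5.89 FPKM with SDs of 1.03 to 3.19 and cannot be put in order. With FGF19ΔKLB, Dusp5 at 0.704 ± 0.399 FPKM, Dusp4 at 0.782 ± 0.208 FPKM and Spry2 at 0.999 ± 0.373 FPKM had the lowest means and did not differ beyond their spread. With vehicle the same 3 genes had the lowest means, Dusp5 at 0.326 ± 0.0542 FPKM and Dusp4 and Spry2 both at 0.377 FPKM, again within their spread. Spry2 had the lowest mean with FGF19WT, at 0.673 ± 0.318 FPKM.

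The rest of the pathway was read through 58 further genes in 5 lists, of which 56 were in the table and 54 passed the filter. Over 9 libraries edgeR called 0 of these 54 in each of the 3 comparisons. Of all genes it called 0.011% for FGF19ΔKLB against vehicle, 0.11% for FGF19WT against vehicle and 0% for FGF19ΔKLB against FGF19WT. The 20 core genes of the cascade, among them the adaptors Frs2 and Grb2 and the Ras and RAF genes, showed a median difference of 0.04 on the log2 scale with FGF19ΔKLB and −0.02 with FGF19WT against vehicle. Of these 20, 1 had an unadjusted p under 0.05 with FGF19ΔKLB, beside 8.35% of all genes, and 2 did with FGF19WT, beside 18.8%. The 7 other MAP kinase phosphatases had medians of −0.20 and 0.08 in these comparisons, and the 10 other Sprouty, Spred, ETS and feedback genes 0.0046 and −0.07. The 6 FGF receptor and co-receptor genes had medians of 0.17 and −0.37, and the 11 immediate early and growth genes 0.15 and −0.05. Of these 11, 4 had an unadjusted edgeR p under 0.05 with FGF19ΔKLB, 2 of them higher, beside 8.35% of all genes. With FGF19WT 4 of the 11 did, all higher, beside 18.8% in either direction and 11.7% higher.

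Over the 6 libraries of FGF19ΔKLB and vehicle, 4 of the 54 listed genes were called, beside 1.68% of all genes. Unlike those of Dusp6 and Spry4, these calls were not checked by leaving out each library in turn. Egr1, an early transcription factor gene that ERK induces through serum response factor, rose to 70.4, 29.3 and 69.0 CPM with FGF19ΔKLB, against 13.3, 12.5 and 15.9 CPM with vehicle (log2 2.02, adjusted p = 0.0465), and stood at 41.0, 128 and 172 CPM with FGF19WT. Ier2, another early gene, rose to 29.7 ± 6.25 CPM against 14.8 ± 1.16 CPM with vehicle (SD, n = 3, 2.01-fold, edgeR adjusted p = 0.0438). With FGF19WT it stood at 27.8, 25.7 and 35.5 CPM. Jun, a subunit of AP-1, fell to 10.5 ± 1.52 CPM against 19.96 ± 1.04 CPM with vehicle (log2 −0.93, edgeR adjusted p = 0.0304), and stood at 11.4, 21.2 and 10.7 CPM with FGF19WT. The receptor gene Fgfr2 rose to 61.2, 51.8 and 61.6 CPM with FGF19ΔKLB, against 14.8, 13.6 and 15.2 CPM with vehicle (3.99-fold, adjusted p = 0.00558).

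With FGF19WT, Fgfr2 stood at 53.3 CPM in library 1 and at 3.76 and 2.82 CPM in libraries 2 and 3, and Spry4 was likewise highest in library 1 of that group. In all, 7 listed genes stayed under 0.2 FPKM in every library, Dusp9, Etv1, Il17rd, Phlda2, Egr3, Fosb and Fosl1, and Phlda2 and Fosl1 did not pass the filter. Etv4, an ETS factor of the same subfamily as Etv5, was not called and is named beside it. It stood at 0.902 CPM on average with FGF19ΔKLB and 0.758 CPM with FGF19WT, against 0.164 CPM with vehicle (edgeR adjusted p = 0.285 and 0.133 over 9 libraries). The vehicle libraries held only 8 to 16 counts of it. Etv1, another ETS gene of that list, went the other way, at 0.0863 CPM with FGF19ΔKLB and 0.0928 CPM with FGF19WT, against 0.408 CPM with vehicle.

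**Figure D5:**
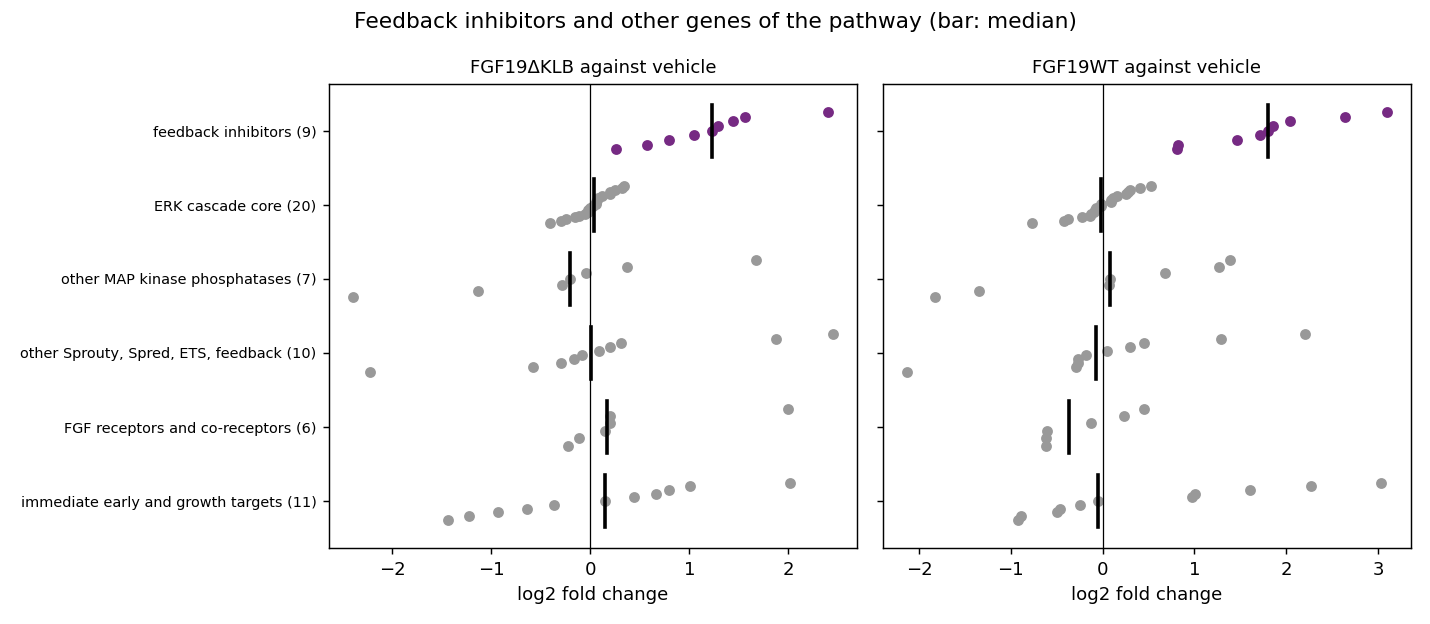
log2 fold changes against vehicle over 9 libraries for FGF19ΔKLB (left) and FGF19WT (right), 1 point per gene, with a bar at the median of each list. The 9 feedback genes have medians of 1.23 and 1.80, and the 20 cascade genes 0.04 and −0.02.

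Genes whose level followed each member most closely were taken from 11686 protein-coding genes with a mean of at least 1 CPM, by Pearson correlation of log2 CPM over the 9 libraries, as a description. FGF19WT libraries 2 and 3 set much of such values, so the coefficient over the other 7 libraries is given after it. Spry4 was nearest to Cyp2b13 (0.98 and 0.99) and Ifi44 (0.97 and 0.98), and Dusp6 to Itpr2 (0.99 and 0.97) and Eid1 (0.97 and 0.98). A coefficient over 0.9 with Spry4 was reached by 0.111% of these genes, with Spry2 by 0.0856%, with Dusp6 by 1.45% and with Spred2 by 3.99%. The average of the 9 standardised genes was followed most closely by Cyp3a16, Tmem218, Sub1, Akr1c18 and Egr1, with coefficients of 0.97 to 0.99 over the 9 libraries and 0.95 to 0.99 over the 7.

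Markers of other liver cells and of hepatocyte zones also differed between these libraries. In FGF19WT libraries 2 and 3, all 12 pericentral and Wnt genes and all 6 proliferation genes lay above the other 7 libraries. All 8 periportal genes, all 9 Kupffer cell genes, 7 of 8 sinusoidal endothelial genes and all 6 B and plasma cell genes lay below them, where 18.4% of all tested genes were above and 19% below. The proliferation genes summed to 9.68 to 20.4 CPM with FGF19ΔKLB, 11.3, 88.8 and 123 CPM with FGF19WT, and 4.36 to 6.05 CPM with vehicle. The endothelial genes summed to 75.7 to 134 CPM with FGF19ΔKLB, 179, 28.4 and 39.2 CPM with FGF19WT, and 139 to 172 CPM with vehicle. Kupffer cell genes summed to 200 to 248 CPM with FGF19ΔKLB, 231, 64.1 and 29.3 CPM with FGF19WT, and 227 to 346 CPM with vehicle. Pericentral and Wnt genes summed to 2023 to 3460 CPM with FGF19ΔKLB, 4936, 31353 and 27859 CPM with FGF19WT, and 4958 to 8783 CPM with vehicle. The part of these shifts in the levels of the feedback genes was not tested.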

How the data were processed

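Liver RNA-seq of 9 libraries was analysed from 1 deposited table that gives whole-number counts and FPKM values per gene, both made by the authors; the counts are not scaled for library size, per the file headers. The submitters' processing notes name Bowtie 0.12.2, HISAT2 2.0 and StringTie 1.3.0 and the build mm8, with no role for each, but 28480 of 28517 genes match GENCODE M21 on GRCm38 by identifier, chromosome and start, so GRCm38 is used. Low counts piled up at multiples of 4, so 1 read pair may give about 4 counts, and totals of 65.1 to 73.3 M would then stand for 16.3 to 18.3 M read pairs.

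edgeR 4.0.16 (R 4.3.3) fitted 1 quasi-likelihood model with TMM factors, the edgeR filter on low counts and a term for group, which left 6 residual degrees of freedom. p-values were adjusted by Benjamini-Hochberg over all genes tested, called at 0.05. The SE is the log2 change divided by the square root of the F statistic, and intervals cover 95%. Alternatives were DESeq2 1.42.0, limma 3.58.1 on log2(FPKM + 1) and log2(FPKM + 0.1) and with voom weights, other filters and scaling, 6-library fits, a replicate block, counts divided by 4 and libraries left out. The procedure was tested on simulated data. The genes, lists and rule for named genes (members, called list genes, nearest genes by correlation) were chosen with earlier results of these data known. Leaving out libraries from the 6-library fits was added after seeing the data. Replicate numbers were not used as pairs in the main fit. The 9 same-number correlations of deviations ran from −0.048 to 0.147, with 1 over 0.1, which does not exclude a pairing.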

Additional observations from a re-analysis of the deposited data

How the results depend on the processing

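Over 9 libraries, edgeR called 20 genes when FGF19WT was set against vehicle, 2 when FGF19ΔKLB was, and 0 for FGF19ΔKLB against FGF19WT, and 0 of the 9 feedback genes in each. In the same order of comparisons, DESeq2 called 1743, 370 and 834 genes and 7, 2 and 2 of the 9. limma voom with library weights called 4326, 386 and 2180 genes and 7, 3 and 4 of the 9. The 6-library fits called 1, 292 and 1 genes and 0, 2 and 0 of the 9. For FGF19WT against vehicle, limma called 69 genes on log2(FPKM + 1) and 45 on log2(FPKM + 0.1), and for FGF19ΔKLB against vehicle 51 and 26. The smaller pseudocount called 1 gene for FGF19ΔKLB against FGF19WT. For FGF19ΔKLB against vehicle the count was 11 with no filter, 13 with a filter of 5 CPM in 3 libraries and 4 with counts divided by 4. With a replicate block it was 1 for FGF19WT against vehicle and 0 for FGF19ΔKLB against vehicle, and 0 of the 9 in each comparison. DESeq2 size factors left the counts at 20, 2 and 0.

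Leaving out 1 library gave 0 to 5221, 0 to 172 and 0 to 3846 genes and 0 to 7, 0 to 2 and 0 to 6 of the 9, the highest each time without FGF19WT library 1. In 6-library fits with 1 library left out, 0 to 7, 0 to 1 and 0 to 5 of the 9 were called. Without FGF19WT libraries 2 and 3 there were 303 genes and 2 of the 9 (Dusp6 and Spry4) for FGF19ΔKLB against vehicle, and 7 genes for FGF19ΔKLB against FGF19WT. In that comparison the log2 change turned to 0.65 for Dusp5, 0.19 for Dusp6, −0.12 for Spry4, 0.20 for Spred1 and 0.64 for Phlda1, with adjusted p of 0.935 to 0.996. No other direction of the 9 genes turned under the alternatives in which they could be fitted. The causes were not tested. If a read pair gave 4 counts, depth limits Spry2, Dusp5 and Dusp4, whose lowest libraries held 13 to 18 read pairs.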

Other observations

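Cyp7a1, the rate-limiting enzyme of bile acid synthesis and the classical gene that FGF19 lowers in liver, is given here beside the Sprouty genes. It stood at 9.49, 7.61 and 5.47 CPM with FGF19ΔKLB, at 3.66, 83.4 and 118 CPM with FGF19WT and at 84.9, 103 and 70.1 CPM with vehicle. FGF19WT library 1 had the lowest Cyp7a1 of the 9 libraries, FGF19WT library 2 lay inside the vehicle range and FGF19WT library 3 above it. Spry4 in the same libraries was high in FGF19WT library 1 and inside the vehicle range in libraries 2 and 3. Over the 6 libraries of FGF19ΔKLB and vehicle, Cyp7a1 fell by 3.52 on the log2 scale (edgeR adjusted p = 0.00606). Over all 9 libraries edgeR did not call it in this comparison (adjusted p = 0.358).

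Klb, the gene of the co-receptor β-klotho, stood at 32.3, 19.1 and 29.8 CPM with FGF19ΔKLB, at 27.4, 10.98 and 10.01 CPM with FGF19WT and at 24.3, 29.2 and 19.8 CPM with vehicle. FGF19WT libraries 2 and 3 were the lowest of the 9. Fgfr4, the receptor that FGF19 uses on hepatocytes, stayed between 32.3 and 49.7 CPM in all 9 libraries. Cyp7a1, Klb and Fgfr4 were singled out after their values were seen, and the relation of these levels to the feedback genes was not tested.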
